A study of Mus musculus with 18 samples.

Results

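The genes described here are 10 members of the Notch pathway, namely the receptors *Notch1*, *Notch2*, *Notch3* and *Notch4*, the ligands *Jag1* and *Dll1*, the nuclear partner *Rbpj*, the coactivator *Maml1*, the target *Hes1* and the receptor adaptor *Numb*. They were taken as the genes of the deposited expression table whose symbol is on that list, which gave 10 of 22708 genes. Bulk RNA sequencing covered small intestinal eosinophils, isolated by sorting, of 18 mice. The mice fell into 3 genotypes of 6, each with 3 males and 3 females: wildtype (WT), *Ahr* knockout (*Ahr*-/-) and *Ahrr* knockout (*Ahrr*-/-). *Ahr* encodes the aryl hydrocarbon receptor, a transcription factor activated by dietary and microbial ligands, and *Ahrr* encodes its repressor. The comparisons ask how expression in intestinal eosinophils differs when the receptor or its repressor is missing. The mice had a C57BL/6 background (written C57/BL6 in the labels). The knockouts are not restricted to eosinophils, so every cell of the mouse carries them. WT and *Ahr*-/- mice came from different litters and different cages. Cells were sorted as CD11b+, MHC-II-, SiglecF+ and SSChi, and RNA went into sequencing only with an integrity number (RIN) of at least 7.

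Notch receptors are single-pass membrane proteins that are activated by ligands on neighbouring cells. Ligand binding exposes the receptor to cleavage by ADAM proteases and then by gamma-secretase, which frees its intracellular domain. This domain enters the nucleus, joins the DNA-binding protein RBPJ and a Mastermind-like coactivator, and switches on targets such as *Hes1*, while NUMB directs receptors to endocytosis and dampens the signal. In the intestine the pathway is best known for keeping epithelial progenitors from becoming secretory cells such as goblet and Paneth cells.

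Values are the deposited variance-stabilized log2 values, on which the lowest value of the table stands for a count of 0 and on which differences of genes with few counts are compressed. Whole counts could be recovered from them and gave the depth. Total counts were 3842977 to 8149200 in WT (median 6022409.5), 6581818 to 10284124 in *Ahr*-/- (median 9647589.5) and 8788867 to 12046933 in the samples labelled *Ahrr*-/- (median 10371556), so WT was the shallowest group. The mean correlation of a sample with the others of its group was 0.953 to 0.969 in WT, 0.971 to 0.977 in *Ahr*-/- and 0.925 to 0.955 in the samples labelled *Ahrr*-/-, across genes, which are not independent replicates. Libraries F3 of WT and of *Ahr*-/- stood apart by the share of genes with at least 1 count, 89.2% and 86.7%, where the other 16 libraries had 66.7% to 75.9%.

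The labels were checked first. *Ahr* itself was 13.40 to 14.40 in WT (median 13.76) and 14.15 to 14.67 in *Ahr*-/- (median 14.55), a difference (WT minus *Ahr*-/-) of -0.61 with a standard error (SE) of 0.19 and an adjusted p of 0.0557 in limma. The *Ahr* transcript was therefore not lower in the knockout, and a count over the whole gene does not check a deletion of a stretch of it. *Ahrr*, a known target of the receptor, was 9.79 to 10.39 in WT and at most 5.79 in *Ahr*-/-, where the counts were 0 to 10. *Tiparp* (difference 2.60, SE 0.18) and *Cyp1b1* (difference 4.07, SE 0.24), both targets of the receptor as well, were lower in all 6 *Ahr*-/- samples than in any WT sample, with adjusted p-values of 1.56e-07 and 1.93e-08 in limma. The samples labelled *Ahrr*-/- had *Ahrr* values of 9.95 to 10.93 (median 10.37), no lower than WT (difference -0.28, SE 0.18, adjusted p 0.683 in limma). Nothing in the targeted gene separated these samples from WT, again with the limit that a whole-gene count sets, and directions involving them are directions against libraries that carry this label.

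The eosinophil markers *Siglecf* and *Ccr3* were abundant, with counts of 867 to 4107 and 5730 to 18113. *Epx*, which encodes eosinophil peroxidase, was near 0, with counts of 4 to 22. The summed normalized count of the 11 eosinophil markers was 44700 to 65240 in WT, 58100 to 75240 in *Ahr*-/- and 25900 to 67840 in the samples labelled *Ahrr*-/-. Library M3 labelled *Ahrr*-/- had the lowest of these sums and, in its group, the lowest *Notch1*, *Notch2*, *Rbpj* and *Maml1* values and the highest *Jag1* and *Dll1* values.

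All 10 genes had at least 1 count in each of the 18 libraries, but their levels spanned a wide range. Levels of different genes were compared per kb of coding sequence, as the mean normalized count over the 18 samples, pooled over genotypes. *Rbpj* came first with 1295 per kb, followed by *Notch2* with 714 and *Hes1* with 616, *Numb* with 409, *Notch1* with 278 and *Maml1* with 203. *Notch4* (17.7 per kb), *Dll1* (7.62), *Jag1* (7.08) and *Notch3* (5.51) were much lower. The order among the abundant genes depended on the length used: per kb of all exons, *Notch2* came first with 491 and *Rbpj*, which has long untranslated exons, had 160, less than *Hes1* (256) and *Numb* (205). In WT, the ranges of *Notch2* (558 to 764 per kb) and *Hes1* (498 to 796) overlapped, as did those of *Notch1* (301 to 421) and *Numb* (268 to 504), so these neighbours did not differ beyond their spread. *Dll1*, *Jag1* and *Notch3* also overlapped in WT. In *Ahr*-/-, *Notch1* was at 86.2 to 146 per kb, below every *Maml1* value there (173 to 282). In the samples labelled *Ahrr*-/-, the median of *Hes1* (654) was above that of *Notch2* (620), and that of *Notch1* (397) above that of *Numb* (344).

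**Figure D1:**
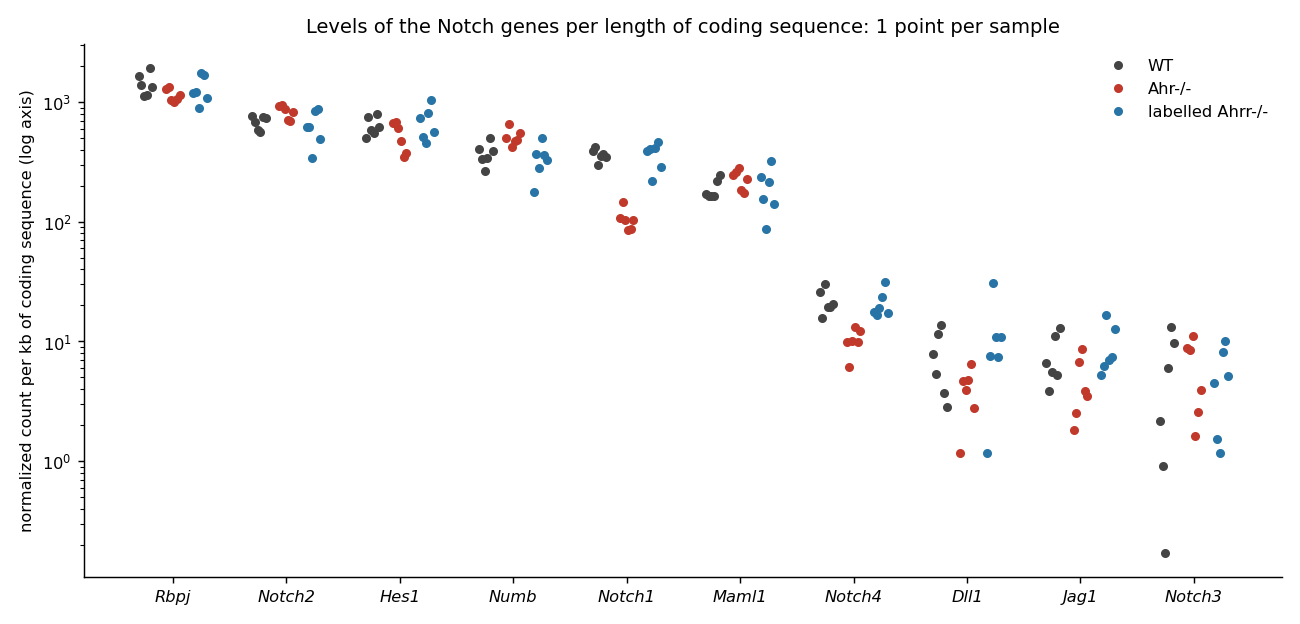
Normalized count per kb of coding sequence (log axis) of the 10 genes, 1 point per sample, coloured by genotype. *Notch1* of *Ahr*-/- lies at 86.2 to 146 per kb, below WT at 301 to 421.

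The receptors carried the clearest differences, and the stretch of DNA at the start of each receptor gene is shown for that reason. Promoters are those of RefSeq on the build GRCm38.p6, from 250 bases before to 50 bases after the transcript start used there, written 5' to 3' on the strand of the gene. For *Notch3* and *Notch4* that start lies a few bases inside the gene coordinates given below. The table held 13 promoters for 9 of the 10 genes, and *Hes1* had none. The windows are chr2:26503773-26504072 on the minus strand for *Notch1*, chr3:98013288-98013587 on the plus strand for *Notch2*, chr17:32166841-32167140 on the minus strand for *Notch3* and chr17:34564045-34564344 on the plus strand for *Notch4*. Capitals mark the core of the motif bound by the aryl hydrocarbon receptor, GCGTG, or its reverse complement CACGC.
Notch1: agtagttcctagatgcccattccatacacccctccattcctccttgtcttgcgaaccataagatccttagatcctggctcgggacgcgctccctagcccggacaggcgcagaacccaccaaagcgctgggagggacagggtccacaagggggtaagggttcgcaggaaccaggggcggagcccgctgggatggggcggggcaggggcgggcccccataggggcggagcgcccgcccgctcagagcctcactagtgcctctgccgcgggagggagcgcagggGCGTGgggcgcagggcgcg
Notch2: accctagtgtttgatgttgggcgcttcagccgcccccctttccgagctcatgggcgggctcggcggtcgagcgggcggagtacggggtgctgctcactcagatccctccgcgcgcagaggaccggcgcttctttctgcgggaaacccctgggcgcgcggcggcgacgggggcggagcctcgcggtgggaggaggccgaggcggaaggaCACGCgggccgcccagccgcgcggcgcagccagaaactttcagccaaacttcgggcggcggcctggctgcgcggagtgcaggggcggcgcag
Notch3: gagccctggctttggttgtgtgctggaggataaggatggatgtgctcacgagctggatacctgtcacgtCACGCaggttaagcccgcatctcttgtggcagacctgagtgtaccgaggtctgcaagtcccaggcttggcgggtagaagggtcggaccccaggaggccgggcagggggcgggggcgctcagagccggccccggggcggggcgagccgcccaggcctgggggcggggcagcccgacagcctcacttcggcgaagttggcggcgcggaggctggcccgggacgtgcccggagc
Notch4: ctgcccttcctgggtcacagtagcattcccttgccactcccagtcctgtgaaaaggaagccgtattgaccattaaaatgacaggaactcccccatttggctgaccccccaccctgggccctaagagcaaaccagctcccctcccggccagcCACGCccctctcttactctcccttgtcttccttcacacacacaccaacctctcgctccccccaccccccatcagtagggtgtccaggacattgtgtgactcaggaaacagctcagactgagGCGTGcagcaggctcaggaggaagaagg
The core occurred once in the *Notch1*, *Notch2* and *Notch3* windows and at 2 places in that of *Notch4*. Among the members it was in a promoter of 7 of 9, the exceptions being *Rbpj* and *Numb*. Of all 27025 genes with a promoter of that length, 35.2% had the same 5 letters in one, on either strand. Counted by promoter, it was in 8 of the 13, against 32.4% of all 32851. The core itself holds the letters CG. These occurred 23, 41 and 25 times in the *Notch1*, *Notch2* and *Notch3* windows and 5 times in that of *Notch4*. The *Rbpj* windows, without the core, had 26 and 28. The shares over all genes and promoters were not matched for CG content, so they do not show an excess of the core. The core of the RBPJ motif, TGGGAA or TTCCCA, was in none of the receptor windows and, of the 9 genes, only in *Rbpj*, against 28.3% of all genes. A match of so few letters describes the sequence and is not a binding site.

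Between WT and *Ahr*-/-, 9 of the 10 genes passed the filter on low values, *Dll1* being the exception, and 3 of the 9 were called at an adjusted p below 0.05 in limma, against 8.84% of all 11346 genes tested. *Notch1* and *Notch4* were higher in WT, a direction in which 3.68% of all genes were called. *Numb* was lower in WT, as were 5.16% of all genes. The groups did not overlap for 2 of the 9, *Notch1* and *Notch4*, both above in WT, against 4.51% of all genes, 1.89% above and 2.62% below in WT. The median difference of the 9 genes was 0.26 and the median size of a difference 0.29, where all genes had 0.0041 and 0.16. The members were chosen with earlier results of these data known. Values of all genes, here and below, therefore stand beside theirs as a description and do not test the list.

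*Notch1*, the receptor with the most studied role in lymphocyte fate, is annotated at chr2:26457902-26503822 (GRCm38; Entrez 18128). Its values ran from 11.20 to 11.67 in WT (median 11.46), from 9.49 to 10.20 in *Ahr*-/- (median 9.73) and from 10.76 to 11.81 in the samples labelled *Ahrr*-/- (median 11.59). All 6 *Ahr*-/- samples lay below all 12 others, while WT and the samples labelled *Ahrr*-/- overlapped. The difference between WT and *Ahr*-/- was 1.72 (SE 0.12, 95% confidence interval 1.47 to 1.97, adjusted p 1.46e-07 in limma), larger than the spread within either group (standard deviation 0.16 in WT and 0.26 in *Ahr*-/-). As mean normalized counts this was 2760 against 801, a ratio of 3.45. Ranked by p among the 11346 genes, *Notch1* was at place 14. The difference was 1.91 in males and 1.53 in females, with no overlap within either sex. Without any difference, 3 against 3 samples separate by chance in 1 of 10 cases, which holds for each comparison within a sex given here. In these bulk samples, fewer cells with the transcript and less transcript per cell cannot be told apart.

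**Figure D2:**
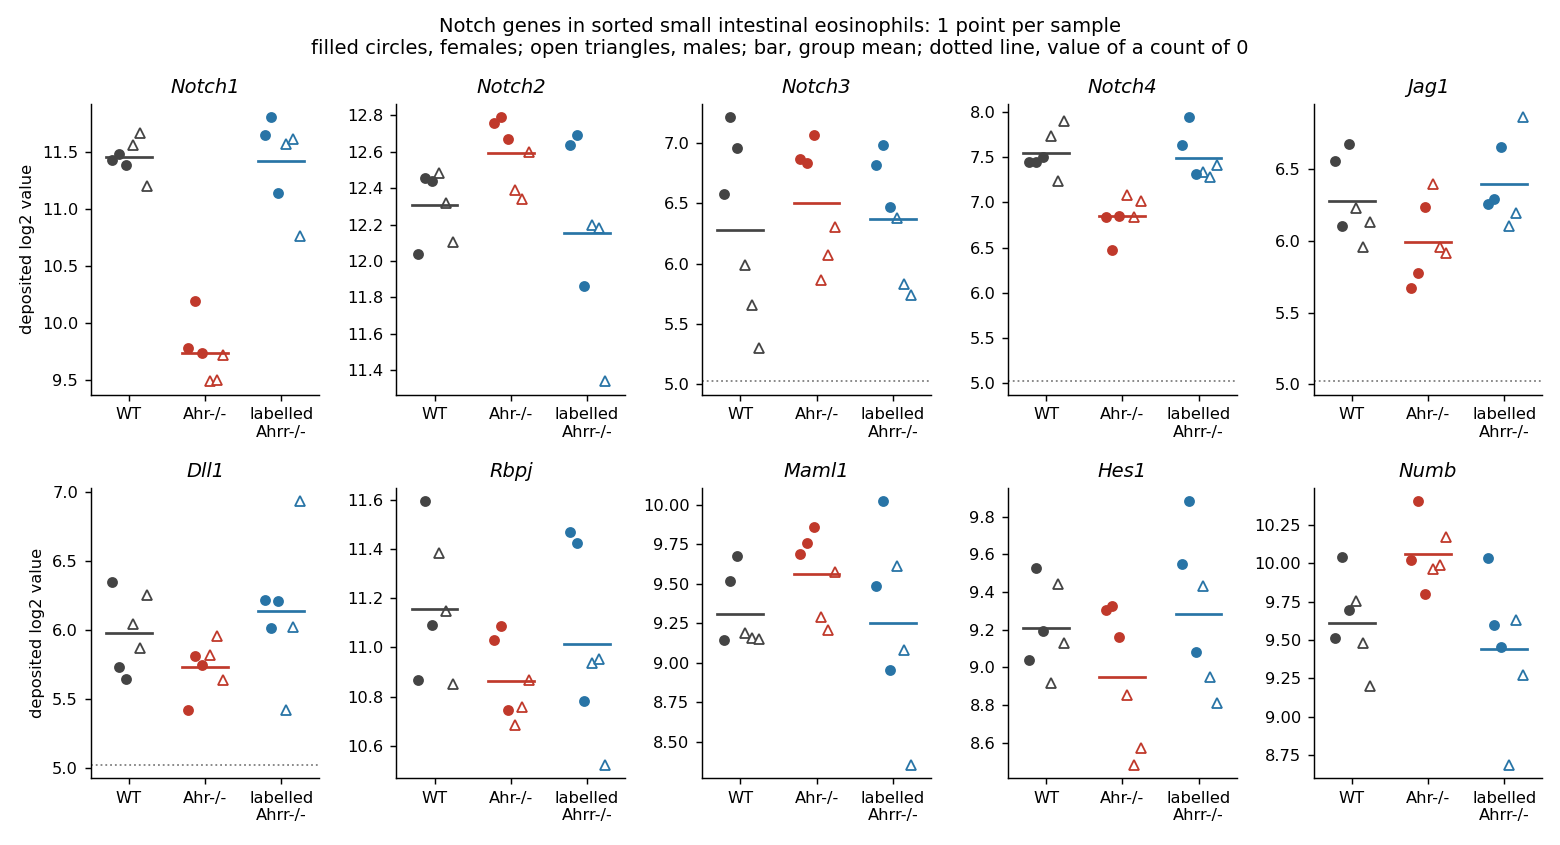
Deposited log2 values of the 10 genes in each sample by genotype, with females as filled circles, males as open triangles and a bar at the group mean. *Notch1* and *Notch4* of *Ahr*-/- lie below all other samples, and *Notch3* separates males from females.

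*Notch4*, a receptor otherwise best known from blood vessels, is annotated at chr17:34564286-34588543 (Entrez 18132) and was counted far less often, with 39 to 177 counts per library. It ran from 7.24 to 7.90 in WT (median 7.47), from 6.47 to 7.08 in *Ahr*-/- (median 6.84) and from 7.28 to 7.95 in the samples labelled *Ahrr*-/- (median 7.37). As for *Notch1*, every *Ahr*-/- sample was below every other sample. The difference between WT and *Ahr*-/- was 0.69 (SE 0.13, adjusted p 0.00242 in limma), with mean normalized counts of 129.5 and 60.6, a ratio of 2.14. On log2(normalized count + 1), which compresses low values less, the difference was 1.09. Endothelial markers were measured beside it. Of 13 listed, all were in the table, none was at 0 in all samples and 7 passed the minimum over all samples. Their summed normalized count was 2649 to 3981 in WT (median 3461), 1983 to 2406 in *Ahr*-/- (median 2200.0) and 1990 to 3917 in the samples labelled *Ahrr*-/- (median 3005). Most of that sum was *Pecam1*, with a mean normalized count of 2610, which leukocytes express as well and which was the 1 called of the 4 endothelial markers with enough counts for a test between WT and *Ahr*-/-. The defining markers *Cdh5* (7 to 122 counts) and *Kdr* (2 to 128 counts) were low, and *Cdh5* values overlapped between WT (5.74 to 6.34) and *Ahr*-/- (5.71 to 6.20). The mean of the whole list was higher in WT by 0.19 (two-sided exact permutation p 0.0476, adjusted 0.144 over 26 tests). The part of endothelial cells in the *Notch4* difference was not tested.

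*Notch2*, the most abundant receptor, pointed the other way without passing the test. It was at 12.04 to 12.49 in WT (median 12.38), 12.34 to 12.79 in *Ahr*-/- (median 12.63) and 11.34 to 12.69 in the samples labelled *Ahrr*-/- (median 12.19). The WT and *Ahr*-/- ranges overlapped, with 3 WT samples below every *Ahr*-/- sample. In females alone the 3 WT values (12.04 to 12.45) were below the 3 *Ahr*-/- values (12.67 to 12.79), and the males overlapped. The difference was -0.29 (SE 0.12, adjusted p 0.155 in limma). *Notch3* was at the edge of detection, with 1 to 82 counts per library, and its WT (5.30 to 7.22) and *Ahr*-/- (5.86 to 7.07) ranges overlapped (difference -0.22, SE 0.16).

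The shares of *Notch1* and *Notch2* among receptor transcripts set *Ahr*-/- apart, while WT and the samples labelled *Ahrr*-/- overlapped for each receptor. Per kb of coding sequence, *Notch1* made up 30.9% to 37.9% of the 4 receptors in WT (median 33.0%), 10.2% to 13.2% in *Ahr*-/- (median 10.7%) and 32.1% to 38.9% in the samples labelled *Ahrr*-/- (median 36.8%). *Notch2* made up 59.4% to 66.4% in WT, 85.5% to 88.0% in *Ahr*-/- and 58.6% to 65.5% in the samples labelled *Ahrr*-/-. Since the 4 shares add up to 100%, a lower *Notch1* share by itself raises that of *Notch2*. *Notch2* was the leading receptor in every sample, and *Notch1* the next one. *Notch4* was at 1.42% to 3.3% in WT and 0.548% to 1.64% in *Ahr*-/-, and *Notch3* at no more than 1.14% in any sample.

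The ligands were close to the limit of detection. *Jag1*, which encodes a ligand of the Serrate type, had 8 to 96 counts per library, and *Dll1*, of the Delta type, 3 to 105. *Jag1* was at 5.95 to 6.67 in WT (median 6.18) and 5.67 to 6.40 in *Ahr*-/- (median 5.94), with overlapping groups and a difference of 0.28 (SE 0.16, adjusted p 0.309 in limma). Over the alternatives other than leaving out 1 library, that difference lay between 0.24 and 0.83 and was not called. *Dll1* was at 5.65 to 6.35 in WT and 5.42 to 5.96 in *Ahr*-/-, with 3 WT samples above every *Ahr*-/- sample, and it had no test there because its mean was under the minimum. The 2 ligands had their highest values, 6.86 and 6.94, in the same library, M3 labelled *Ahrr*-/-, which also had the highest sums of goblet cell (45620), enterocyte (30320), intestinal stem cell (7065) and fibroblast markers (1668) among the 18. Their part in these ligand values was not tested.

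*Rbpj*, the DNA-binding partner of every receptor, was at 10.85 to 11.60 in WT (median 11.12), 10.69 to 11.09 in *Ahr*-/- (median 10.81) and 10.52 to 11.47 in the samples labelled *Ahrr*-/- (median 10.95). The groups overlapped, with 4 of 6 WT samples above every *Ahr*-/- sample. The difference between WT and *Ahr*-/- was 0.29 (SE 0.13, adjusted p 0.186 in limma). After quantile normalization the same comparison gave 0.33 with an adjusted p of 0.0312 in limma, so the call depended on the scaling. Over all alternatives other than leaving out 1 library, its adjusted p in limma lay between 0.0312 and 0.328. *Maml1*, which bridges the nuclear complex to histone acetyltransferases, was at 9.14 to 9.67 in WT and 9.21 to 9.86 in *Ahr*-/-. There too the groups overlapped, and the difference of -0.26 (SE 0.11) missed the threshold, with an adjusted p of 0.151 in limma. Within each sex the 3 WT samples lay narrowly below the 3 *Ahr*-/- samples, at 9.15 to 9.19 and 9.21 to 9.58 in males and at 9.14 to 9.67 and 9.69 to 9.86 in females.

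*Hes1*, a transcriptional repressor and the classic target of the pathway, did not differ between WT and *Ahr*-/- beyond the spread. Its values were 8.92 to 9.53 in WT (median 9.16), 8.48 to 9.33 in *Ahr*-/- (median 9.01) and 8.81 to 9.88 in the samples labelled *Ahrr*-/- (median 9.26). All 3 ranges overlapped. The difference between WT and *Ahr*-/- was 0.26 (SE 0.13, 95% confidence interval -0.03 to 0.54, adjusted p 0.263 in limma). In males alone the 3 WT values (8.92 to 9.44) were above the 3 *Ahr*-/- values (8.48 to 8.85), whereas the females overlapped (9.04 to 9.53 and 9.16 to 9.33). The test of that dependence on sex gave 0.54 (SE 0.24), with an unadjusted p of 0.0407 and an adjusted p of 0.954 in limma.

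*Numb* was the member that was lower in WT. It ran from 9.20 to 10.04 in WT (median 9.60), from 9.80 to 10.41 in *Ahr*-/- and from 8.69 to 10.03 in the samples labelled *Ahrr*-/- (median 9.53). Apart from WT F2, the highest WT library, each WT sample was below every *Ahr*-/- sample. The difference of -0.44 (SE 0.13, adjusted p 0.047 in limma) was just past the threshold. In males alone the 3 WT values (9.20 to 9.76) were below the 3 *Ahr*-/- values (9.96 to 10.17), and the females overlapped. Its call was lost on leaving out any 1 of 9 of the 12 libraries, namely F1, F3, M2 and M3 of WT and F1, F2, M1, M2 and M3 of *Ahr*-/-, with differences of -0.47 to -0.37 in limma and adjusted p-values of 0.0755 to 0.121. Without both F3 libraries, an alternative chosen after seeing the data, the difference was -0.51 with an adjusted p of 0.0541 in limma, while *Notch1* (1.73) and *Notch4* (0.70) stayed past the threshold.

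**Figure D3:**
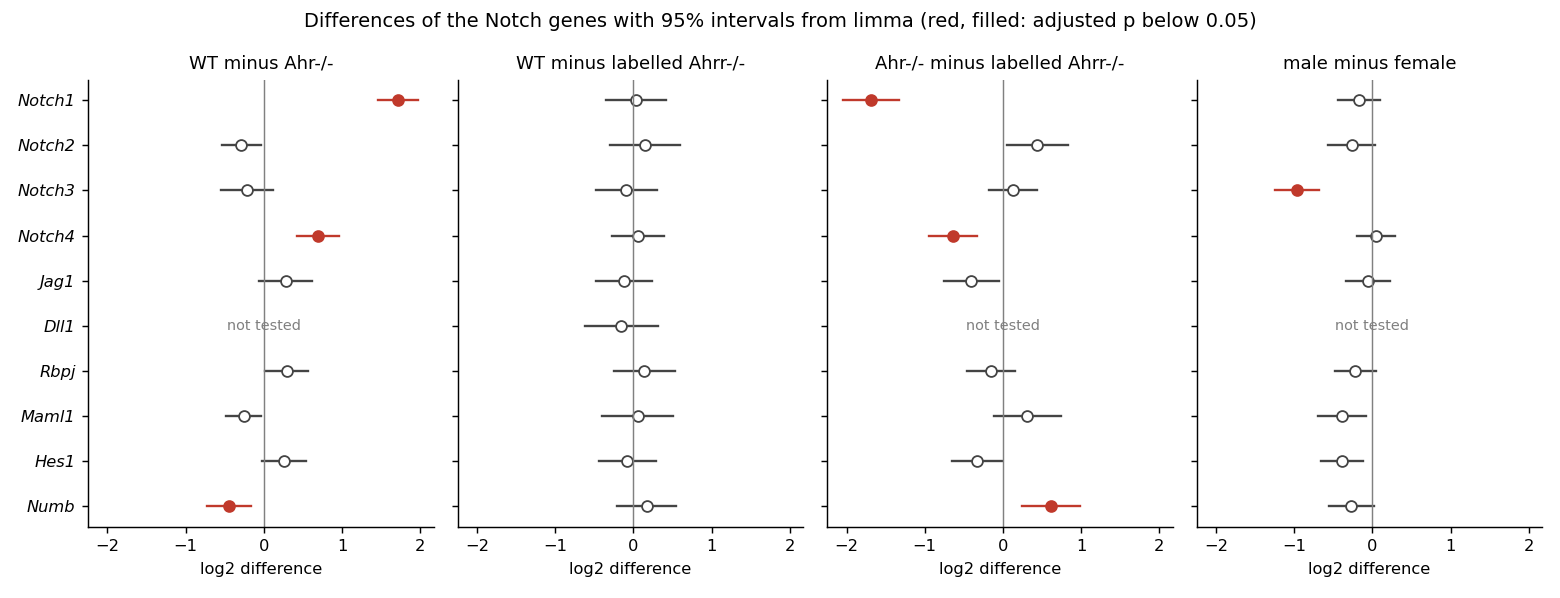
Differences of log2 values in limma with 95% confidence intervals, 1 panel per comparison, with filled red points for an adjusted p below 0.05. *Notch1* stands at 1.72 in WT minus *Ahr*-/-, and *Notch3* at -0.96 in male minus female.

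The WT samples also served in the comparison with the samples labelled *Ahrr*-/-, so the 2 comparisons are not independent. All 10 genes were tested there and 0 were called in limma, against 0.0779% of 11546 genes. At an unadjusted p below 0.05 the count among the 10 was also 0, and it was 853 among all genes. The voom fit of the recovered counts called 0 of them too. *Notch1* differed by 0.03 (95% confidence interval -0.35 to 0.42) and *Notch4* by 0.06 (-0.28 to 0.39), and neither interval reached the difference seen between WT and *Ahr*-/-. *Dll1* (-0.16, SE 0.22) and *Jag1* (-0.12, SE 0.17) had the lowest values among the differences, and *Numb* (0.17, SE 0.18) and *Notch2* (0.15, SE 0.21) the highest. No member separated the groups, where 0.459% of all genes did.

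Set against the samples labelled *Ahrr*-/- directly, *Ahr*-/- gave 3 called genes of 9 tested in limma, where 14.9% of 11474 genes were called. *Notch1* and *Notch4* were lower in *Ahr*-/-, as were 8.04% of all genes, and *Numb* was higher, as were 6.84%. Which of these directions held more of all genes depended on the scaling, the filter, the sex covariate and single libraries. For *Notch1* the difference (*Ahr*-/- minus labelled *Ahrr*-/-) was -1.69 (SE 0.17, adjusted p 1.81e-05 in limma), and for *Notch4* -0.64 (SE 0.15, adjusted p 0.0121 in limma). Neither gene overlapped between the groups, as was so for 4.61% of all genes, 1.6% lower and 3.01% higher in *Ahr*-/-. The *Numb* difference was 0.61 (SE 0.17, adjusted p 0.0319 in limma), with overlapping groups, and was not called on leaving out any of F1, F2, M1, M2 and M3 of *Ahr*-/- or F3 and M3 labelled *Ahrr*-/- (0.56 to 0.65, adjusted p 0.0511 to 0.0826 in limma). *Notch2* (0.44, SE 0.18), *Jag1* (-0.40, SE 0.16) and *Hes1* (-0.33, SE 0.15) did not pass, with adjusted p-values of 0.112, 0.104 and 0.135 in limma. *Notch2* was past the threshold only after quantile normalization (0.42, adjusted p 0.0441 in limma).

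*Notch3*, annotated at chr17:32120820-32166896 (Entrez 18131) and known from smooth muscle and pericytes, was the member that differed by sex. Of the 9 genes tested over all 18 samples it was the 1 called in limma, against 3.06% of 11468 genes, 2.46% lower and 0.602% higher in males. In WT, males were at 5.30 to 5.98 and females at 6.58 to 7.22. In *Ahr*-/- the males were at 5.86 to 6.30 and the females at 6.84 to 7.07, and under the *Ahrr*-/- label at 5.74 to 6.38 and 6.47 to 6.98. Males were thus below females in each genotype, and all 9 males below all 9 females, a separation seen in 0.148% of all genes, 0.0872% lower and 0.061% higher in males. The difference (male minus female) was -0.96 (SE 0.13, adjusted p 0.000954 in limma), and mean normalized counts were 14.3 in males and 62.3 in females, a ratio of 4.35. The counts behind these values were few, 1 to 37 in males and 33 to 82 in females. Fibroblast markers, the list closest to stromal cells, summed to 61.3 to 1668 in males (median 100.3) and 52.7 to 952 in females (median 110.3). Of its 8 genes all were in the table, 4 passed the minimum, none was at 0 in all samples and *Col3a1* was the most abundant (mean normalized count 76.9). These sums overlapped between the sexes, and no list of smooth muscle or pericyte markers was measured.

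No other member passed the test by sex in the main fit. With array weights *Hes1* (-0.48) and *Maml1* (-0.39) were called too, with adjusted p-values of 0.00661 and 0.0222 in limma. Calls among all genes then rose from 351 to 1310. *Hes1* (-0.39, SE 0.13) and *Maml1* (-0.39, SE 0.15) had adjusted p-values of 0.101 and 0.162 in limma. In *Ahr*-/-, *Hes1* males were below females without overlap (8.48 to 8.85 and 9.16 to 9.33). The same was so there for *Notch1* (9.49 to 9.72 and 9.73 to 10.20), *Notch2* (12.34 to 12.60 and 12.67 to 12.79) and *Maml1* (9.21 to 9.58 and 9.69 to 9.86). For each of these genes the sexes overlapped in the other genotypes. The chance of separation given above for comparisons within a sex holds here too. *Hes1* was called (-0.44) on leaving out WT F1 or the library F3 labelled *Ahrr*-/-, with adjusted p-values of 0.0442 and 0.0463 in limma. Then 2 members were called, while calls among all genes rose from 351 to 733 and 577. For the dependence of the WT and *Ahr*-/- difference on sex, 0 of 9 members were called in limma, and 0 of 11346 genes. At an unadjusted p below 0.05 there were 1 member, *Hes1*, and 533 genes.

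The wider pathway was followed with a list of 89 genes in 11 roles, of which 68 could be tested between WT and *Ahr*-/-. In limma 11 of them were called, 6 higher and 5 lower in WT (median difference 0.04), against the 8.84% of all genes given above. Without the 10 members the count was 8 of 59, 4 in each direction. Among ubiquitin ligases, *Dtx4*, which acts on Notch receptors, was higher in WT (1.07, SE 0.10), as were *Itch* (0.53, SE 0.09) and *Nedd4* (0.53, SE 0.14), which mark receptors for degradation. For these 3 ligases, no WT sample overlapped with an *Ahr*-/- sample, with *Dtx4* at 11.19 to 11.57 and 10.09 to 10.46. *Maml2*, a paralogue of *Maml1*, was lower in WT, at 6.83 to 7.80 (median 7.40), than in *Ahr*-/-, at 8.17 to 8.73 (median 8.69), a difference of -1.23 (SE 0.16, adjusted p 9.27e-05 in limma). *Pofut1*, which adds O-fucose to receptors (-0.50, SE 0.12), and *Adam17*, which encodes an ADAM protease (-0.49, SE 0.14), were lower in WT too. Of the targets outside the HES and HEY families, *Myc* was lower in WT (-0.99, SE 0.12) and *Runx1* higher (0.88, SE 0.14), both without overlap. These 2 known targets thus differed in opposite directions. Of the 10 HES and HEY genes, 2 had enough counts for a test and 0 were called in limma, with 0 at an unadjusted p below 0.05. Of the 7 ligands, only *Jag1* had enough counts in that comparison.

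**Figure D4:**
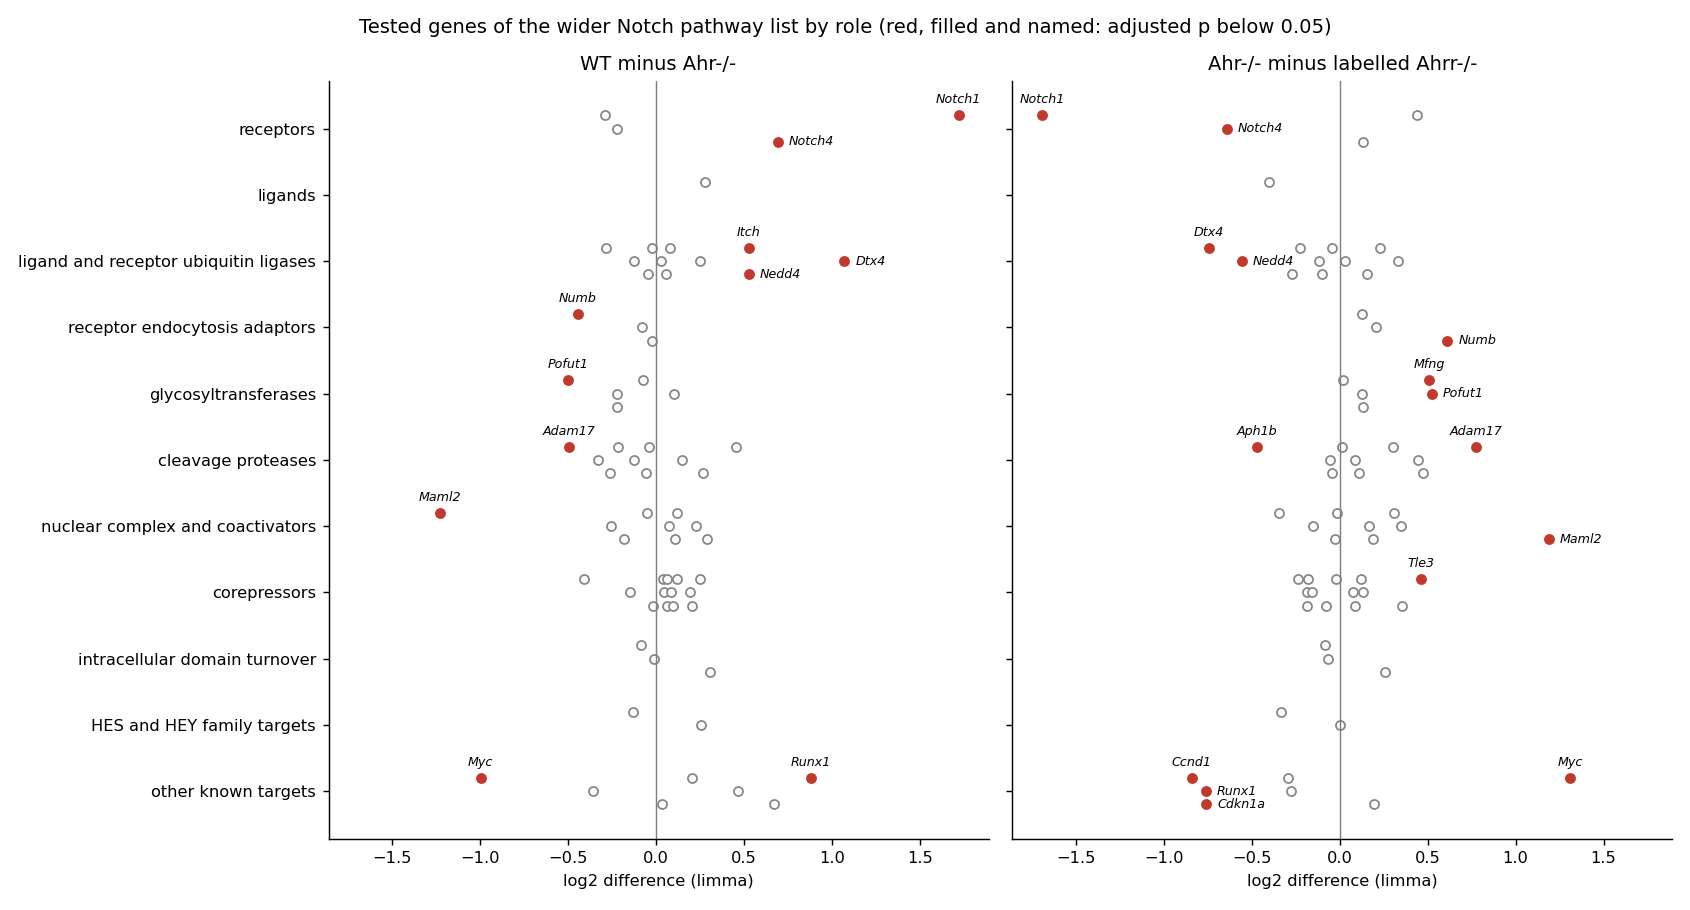
Log2 differences in limma of the tested genes of the wider list, 1 point per gene, by role, with genes at an adjusted p below 0.05 filled, red and named. *Notch1* (1.72) and *Maml2* (-1.23) are the farthest from 0 among those called in WT minus *Ahr*-/-.

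Against the samples labelled *Ahrr*-/-, 15 of 68 pathway genes were called in *Ahr*-/-, 7 higher and 8 lower in limma, beside the 14.9% of all genes. Those higher were *Numb*, *Pofut1*, *Mfng*, *Adam17*, *Maml2* (1.19, SE 0.14), *Tle3* and *Myc* (1.31, SE 0.17). Those lower were *Notch1*, *Notch4*, *Nedd4*, *Dtx4* (-0.74, SE 0.17), *Aph1b*, *Ccnd1* (-0.84, SE 0.22), *Cdkn1a* and *Runx1* (-0.76, SE 0.17). Leaving out M1 or M3 of *Ahr*-/-, or M3 labelled *Ahrr*-/-, brought the count to 8, 7 and 9. The count over all genes fell with it, from 1708 to 839, 818 and 923. Between WT and the samples labelled *Ahrr*-/-, 0 of 69 were called in limma, beside 0.0779% of all genes, with 1 at an unadjusted p below 0.05. By sex, 3 of 68 were called in limma, beside 3.06% of all genes (2.46% lower in males): *Notch3*, *Cdkn1a* (-0.68, SE 0.15) and *Nfkb2* (-0.68, SE 0.18), all lower in males. Without WT F1 or the library F3 labelled *Ahrr*-/- the sex count was 5, and without *Ahr*-/- M1 it was 1. The count over all genes moved with it, from 351 to 733, 577 and 142.

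Transcripts of the wider list were counted well beyond the 10 genes, in bulk samples that also held markers of other cells. Which cells they came from, and whether the pathway was active, was not tested. Per kb of coding sequence, the gene with the highest mean, over the 18 samples and in each genotype, was *Neurl3* among the ubiquitin ligases (17810 per kb), *Psenen*, a subunit of gamma-secretase, among the proteases (2163), *Pofut1* among glycosyltransferases (348) and *Cdk8* among genes of intracellular domain turnover (330). Among receptors, adaptors, nuclear factors and the HES and HEY genes, the highest were *Notch2*, *Numb*, *Rbpj* and *Hes1*. In the other roles the leader changed with the genotype. *Cdkn1a* led the other targets over the 18 samples (2682), but in WT the mean of *Runx1* was higher (2822 and 2714). *Dll1* led the ligands over the 18 samples (7.62 against 7.08 for *Jag1*) through the library M3 labelled *Ahrr*-/-, where both were highest (30.6 and 16.6). Without that library *Jag1* led (6.52 and 6.27). *Ncor1* led the corepressors over the 18 samples (556), in WT and in *Ahr*-/-, but not in the samples labelled *Ahrr*-/-. Per kb of all exons, other genes led the ligands, the glycosyltransferases, the nuclear factors and the genes of turnover.

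Markers of other cells that the sort could hold were summed in each sample. Goblet cell markers, 7 of 7 in the table and none at 0 in all samples, summed to 7328 to 20580 in WT (median 10970), 4997 to 6737 in *Ahr*-/- (median 5612) and 4206 to 45620 in the samples labelled *Ahrr*-/- (median 22330), with *Muc2* the most abundant (mean normalized count 3757). WT was above *Ahr*-/- in every sample, as for *Notch1* and *Notch4*, and 6 of the 7 genes were called higher in WT in limma. The mean of this list differed by 0.93 with a two-sided exact permutation p of 0.00216, the lowest that 6 against 6 samples allow. Over 26 tests (13 lists in 2 comparisons) it adjusted to 0.0562, and a single list at the lowest possible p could not have come below 0.05, so missing the threshold says nothing about this list. Under the *Ahrr*-/- label, library F2 had a goblet cell sum of 4206, below every *Ahr*-/- sample, and M3 had the highest, 45620. *Notch1* and *Notch4* of both libraries were above every *Ahr*-/- sample. Intestinal stem cell markers, 5 of 5 in the table with *Olfm4* the most abundant, overlapped, at 1229 to 3479 in WT (median 1580) and 803 to 1370 in *Ahr*-/- (median 1146), and 0 of the 5 genes were called in limma. Pancreatic acinar markers, 12 of 12 in the table with *Ctrb1* the most abundant, were at 71.2 to 4237 in WT (median 1327) and 29.3 to 515 in *Ahr*-/- (median 40.3). The mean of the stem cell list differed by 0.46 (exact permutation p 0.00649, adjusted 0.0844), that of the acinar list by 1.21 (p 0.0173, adjusted 0.09) and that of the eosinophil list by -0.24 (p 0.026, adjusted 0.113). The means of these 3 lists did not pass. Of single genes, 3 of the 7 acinar markers tested were called in limma, all higher in WT (*Prss2*, *Cela2a* and *Ctrb1*). Of the 8 eosinophil markers tested, 1 was called higher and 2 lower in WT in limma. Against *Ahr*-/-, the samples labelled *Ahrr*-/- had higher stem cell sums without overlap (1405 to 7065), and their Paneth cell sums (8424 to 71100) overlapped those of *Ahr*-/- (1423 to 8542) at the edge. All 7 Paneth cell markers were in the table, with *Lyz1* the most abundant. Neutrophil sums were 1114 to 3922 in the samples labelled *Ahrr*-/-, above WT (222.4 to 569.9) without overlap and overlapping *Ahr*-/- (251.6 to 2201). *S100a8* and *S100a9* of that list were called lower in WT than in the samples labelled *Ahrr*-/- in limma. Plasma and B cell sums overlapped, at 332.7 to 6045 under that label, 229.3 to 1775 in WT and 96.1 to 740.4 in *Ahr*-/-. The part of differences in cell makeup in the *Notch1*, *Notch4* and *Numb* differences was not tested in any comparison.

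**Figure D5:**
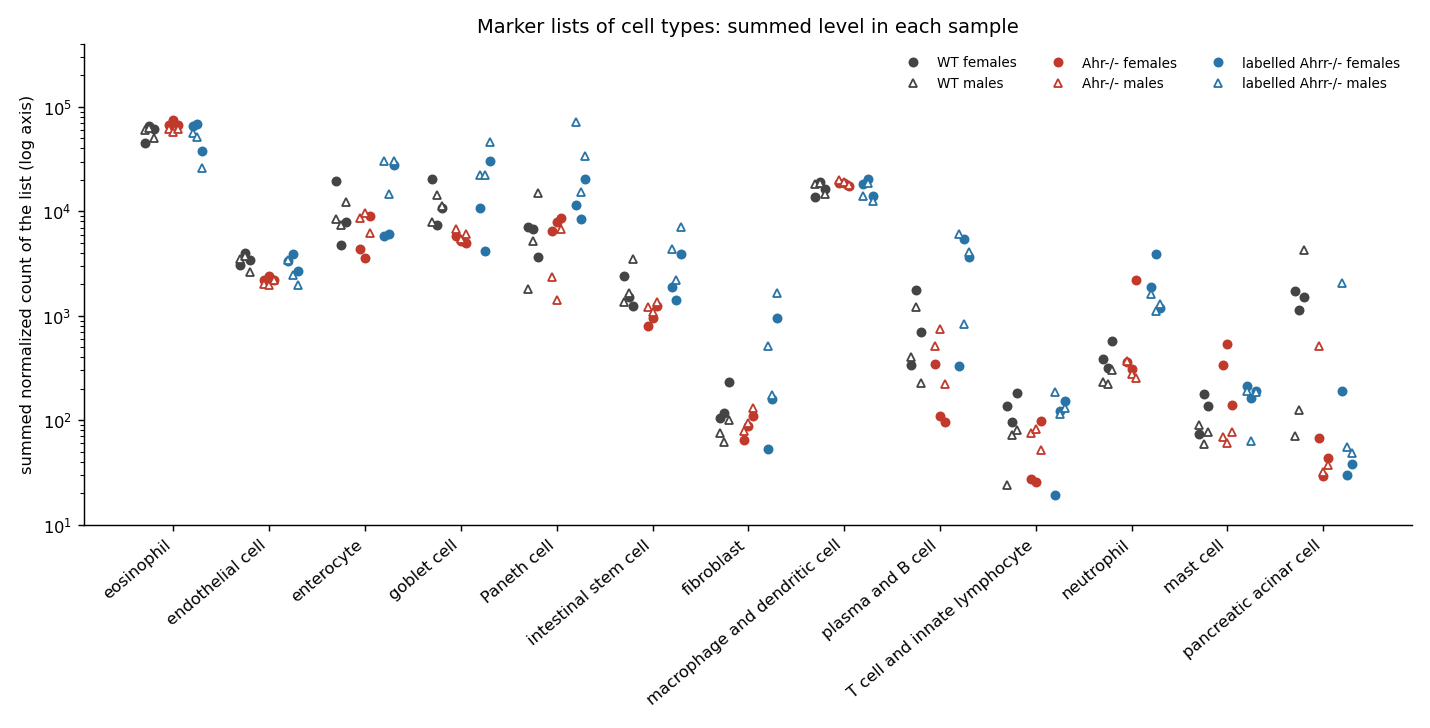
Summed normalized counts (log axis) of 13 lists of cell type markers, 1 point per sample, coloured by genotype, with males as open triangles. Goblet cell sums are 7328 to 20580 in WT and 4997 to 6737 in *Ahr*-/-.

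The library preparation is not stated to keep strand, so reads of genes on opposite strands cannot be told apart. *Notch1* shares 1068 exon bases with the opposite-strand transcript 0610009E02Rik, which the table lists with a mean normalized count of 7.32 against 2108 for *Notch1*. It shares 414 more with the opposite-strand transcript Gm13568, which the deposited values do not include, so the share of its reads is unknown. Exons of *Notch3*, *Dll1*, *Maml1* and *Numb* also overlap annotated transcripts of the other strand, with 488, 867, 135 and 166 shared bases, and for *Notch3* and *Dll1*, with their few counts, the share of such reads is unknown.

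Genes outside the pathway list with the pattern most like that of 4 members were ranked by Pearson's r of the deposited values over the 18 samples, among 11400 genes. These are descriptions, since samples of 1 genotype share what sets them apart. For *Notch1* they were *Csf2rb2* (r 0.98, Spearman's rho 0.96), *Exoc3* (0.97 and 0.94) and *Acpp* (0.97 and 0.84). Leaving out the 2 samples farthest from the median of *Notch1* gave r of 0.98, 0.96 and 0.96, and without the 6 *Ahr*-/- samples r was 0.94, 0.82 and 0.76, so a part of the likeness to *Exoc3* and *Acpp* rested on that genotype. For *Notch2* they were *Man2b1*, *Pygl* and *Arap1* (r 0.97, 0.96 and 0.96), for *Rbpj* *Arl4c*, *Ptk2b* and *Tmem131l* (0.95, 0.95 and 0.94) and for *Hes1* *Hlx*, *Ifitm2* and *Csnk1e* (0.86, 0.85 and 0.85). Without the 2 samples farthest from the member's median, r was 0.93, 0.91 and 0.92 for *Notch2* and 0.94, 0.92 and 0.91 for *Rbpj*. For *Hes1* it fell to 0.81, 0.74 and 0.80, and within genotype and sex to 0.66, 0.72 and 0.79. Among the members themselves, *Notch1* and *Notch4* had r of 0.76 over the 18 samples and -0.12 after the means of genotype and sex were taken out, so their likeness lay between genotypes. *Notch1* and *Notch2* did the reverse, with -0.23 over the samples and 0.87 within genotype and sex. *Notch2* and *Maml1* were alike on both scales, with 0.89 and 0.87. Within groups, *Notch2* spread most under the *Ahrr*-/- label (standard deviation 0.51, against 0.19 in WT and 0.19 in *Ahr*-/-). Libraries F3 and M3 of that label lay farthest from its median and had the lowest eosinophil marker sums (37860 and 25900). Their part in the r within genotype and sex was not tested.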

How the data were processed

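RNA was sequenced from sorted small intestinal eosinophils of 18 mice, in 3 genotypes of 6 with 3 males and 3 females each. Per the labels, the authors aligned reads with STAR 2.5.2, counted genes with RSEM 1.3.0 and applied the variance-stabilizing transformation of DESeq2 in R 4.0.3, and the deposited table holds these log2 values for 22708 genes. The lowest value of the table is a count of 0, and whole counts were recovered from the spacing of the values in each library (100% within 0.0001 of a whole number), giving depth and normalized counts.

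The deposited values were compared with limma 3.58.1 in R 4.3.3 (mean-variance trend, sex as covariate, or genotype where the sexes were compared), after genes with a mean less than 1 above the lowest value had been dropped, with adjusted p-values (Benjamini-Hochberg) called below 0.05. Tables and figures used Python 3.11.15, matplotlib 3.10.9, scipy 1.17.1, pandas 2.3.3 and numpy 2.4.6. The limma steps were tested on simulated data, where 198 of 200 changed genes were recovered with 12 false calls for WT against Ahr-/-. The changes put in were larger than the *Notch4* and *Numb* differences, with independent normal noise. They were put only into genes with a mean at least 3 above the lowest value. The simulation therefore checks the steps and does not measure how often smaller differences, or those of genes with few counts, would be called. Gene lengths and overlaps come from GENCODE M21, and promoters from RefSeq.

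The text names the 10 members, the genes of the wider pathway list that were called or lead their role, the label and marker genes, and the 3 genes most alike in pattern to each of 4 members. The members, the pathway list and the 13 marker lists were chosen with earlier results of these data known. Marker lists were compared by exact permutation of samples. Alternatives covered filter, scaling, weighting, transformation, covariates, replicate block and each library left out in turn. Leaving out both F3 libraries was chosen after seeing the data. A p that misses the threshold does not show that values did not differ.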

Additional observations from a re-analysis of the deposited data

Results flagged for a closer look

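In the 30 groups of 6 values of the 10 genes, 0 held a sample whose gap to the nearest other sample was large enough against the range of its group to pass the 95% critical value of Dixon, where chance gives about 1 in 20 groups.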

How the results depend on the processing

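Between WT and Ahr-/-, *Notch1* (1.66 to 1.81) and *Notch4* (0.63 to 0.79) kept direction and call without any 1 library, and so did the sex difference of *Notch3* (-1.04 to -0.89). With a minimum of 3 above the lowest value, *Notch3*, *Notch4*, *Jag1* and *Dll1* were not tested. Over the alternatives other than leaving out 1 library, differences of genes with few counts reached farther from 0. Between WT and Ahr-/- they reached 0.83 for *Jag1* and -0.79 for *Notch3*. Between Ahr-/- and labelled Ahrr-/- they reached -1.15 for *Jag1* and -1.01 for *Notch4*, and by sex -2.33 for *Notch3*. No call of these changed where the gene was tested. *Numb* lay at -0.52 to -0.37 between WT and Ahr-/- and at 0.47 to 0.71 between Ahr-/- and labelled Ahrr-/- without 1 library, and its limma call in the first was also lost with no minimum (adjusted p 0.0909), median centring (0.0562), no trend (0.0604), no sex covariate (0.0587), all 18 samples in 1 fit (0.147) and both F3 libraries out (0.0541, chosen after seeing the data), and in the second with no sex covariate (0.0541). Counts of called members were 2 to 4 in each of these 2 comparisons and 0 between WT and labelled Ahrr-/-, and the number of members tested changed with the setting. By sex the count of 1 became 0 with the minimum of 3, 3 with array weights (*Hes1*, *Maml1* and *Notch3*), and 1 to 2 without 1 library. The wider list went from 11 to 7 with all 18 samples in 1 fit (WT against Ahr-/-), from 15 to between 7 and 17 without 1 library (Ahr-/- against labelled Ahrr-/-), and by sex from 3 to 7 with array weights, 1 with no genotype covariate and 1 to 5 without 1 library. All genes went from 1003 to 553 with all 18 samples, 586 without both F3 libraries and 623 to 1124 without 1 library (WT against Ahr-/-). Between WT and labelled Ahrr-/- they went from 9 to 4 (no minimum, median centring, log2(normalized count + 1), voom or replicate block), 5 (minimum of 3 or quantile normalization), 18 (array weights), 14 (all 18 samples) and 4 to 25 without 1 library. Between Ahr-/- and labelled Ahrr-/- they went from 1708 to 828 (minimum of 3), 994 (no sex covariate) and 818 to 2574 without 1 library, and the balance of 785 higher and 923 lower in Ahr-/- turned with median centring (981 and 827), quantile normalization (1029 and 819), the minimum of 3 (500 and 328) and no sex covariate (549 and 445), and without Ahr-/- F1 (479 and 428), F2 (488 and 482), M1 (435 and 404) or M3 (439 and 379) or labelled Ahrr-/- M3 (478 and 445). By sex they went from 351 to 163 (no minimum), 1310 (array weights), 211 (no genotype covariate) and 142 to 733 without 1 library. Signs turned only for differences that were not called. With array weights *Hes1* was 0.11 (WT minus labelled Ahrr-/-) and *Jag1* 0.0519 by sex (0.038 without both F3 libraries), and with quantile normalization *Notch4* was -0.0056 by sex and *Rbpj* -0.0012 for the dependence on sex. Without 1 library, WT minus labelled Ahrr-/- spanned -0.10 to 0.11 (*Notch1*), -0.18 to 0.028 (*Notch3*), -0.0304 to 0.15 (*Notch4*), -0.19 to 0.0035 (*Jag1*), -0.10 to 0.18 (*Maml1*) and -0.16 to 0.0277 (*Hes1*), the sex difference -0.0063 to 0.11 (*Notch4*) and -0.12 to 0.0002 (*Jag1*), and the dependence on sex -0.23 to 0.10 (*Notch4*), -0.0297 to 0.34 (*Rbpj*) and -0.0218 to 0.24 (*Maml1*). Apart from fewer samples or genes tested, the cause was not tested. Library numbers do not pair samples: same-number pairs correlated at -0.59 to 0.47 (6 of 18 over 0.1), and a replicate block called 3, 0, 3 and 1 members in the 3 genotype comparisons and by sex. WT was the shallowest group, and few counts limit *Jag1*, *Dll1* and *Notch3*.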
